A study of Homo sapiens with 8 samples.

Results

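The 10 genes described here encode collagen chains that build basement membranes, networks and anchoring fibrils rather than the thick fibrils of type I and III collagen. They were taken by gene symbol from the count table, in which they are 10 of 27696 rows, and all 10 passed edgeR's filter on low counts. They are the type IV chains COL4A1, COL4A2 and COL4A5, the type VI chains COL6A1, COL6A2 and COL6A3, the anchoring collagen COL7A1, the type VIII chains COL8A1 and COL8A2, and COL18A1. Recipient cells were normal IMR90 fibroblasts, primary human cells from embryonic lung that are widely used as a line of limited lifespan, kept for 3 days in medium that IMR90 ER:RAS fibroblasts had conditioned. These donor cells carry a RAS protein that 4-OHT switches on, and then become senescent. The medium came from donors at day 0 (D0), 4 (D4), 7 (D7) or 10 (D10) of 4-OHT, and the recipient fibroblasts did not carry the ER:RAS construct. Each group had 2 libraries of poly(A) RNA from 2 independent experiments, so 8 libraries were compared, all from 1 line. D0 medium, from donors at the start of induction, was the control for every later day.

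Type IV collagen forms the flat mesh on which the other parts of a basement membrane are laid. COL4A1 and COL4A2 chains make its common trimers, and COL4A5 enters other trimers with COL4A6 or with COL4A3 and COL4A4. Type VI collagen forms beaded microfilaments around connective tissue cells, type VII collagen holds epithelial basement membranes to the stroma beneath, and type VIII collagen forms hexagonal lattices best known from the cornea and the vessel wall. Type XVIII collagen carries heparan sulfate chains, and its end fragment is endostatin. Fibroblasts are a main source of type VI collagen and one of the sources of the others.

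Total counts per library ran from 11708193 to 13395912. The fibroblast markers were high in every library, with a summed level of 21220 to 58050 CPM (counts scaled to a common, TMM-normalised library size) over 10 of 10 genes. The lowest of these sums was that of D10 in experiment 2, where COL1A1 stood at 1295 CPM against 9432 in experiment 1 and type I and III chains took 0.501% of the counts against 2.0% to 3.09% in the other 7 libraries. Of the 9 endothelial markers, 7 stayed under 1 CPM everywhere or had no row, VWF did not pass 2.37 CPM and TEK lay between 40.4 and 121 CPM. The summed epithelial markers lay between 1.03 and 3.50 CPM, the summed immune markers between 1.53 and 4.02 CPM, and the pericyte markers between 4.48 and 13.9 CPM, nearly all of it RGS5.

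By their RefSeq starts both type IV gene pairs lie head to head on opposite strands, and the stretches between those starts are shown here because the genes of each pair are compared below. COL4A1 (ENSG00000187498.14, chromosome 13 from 110148963 to 110307233, minus strand) and COL4A2 (ENSG00000134871.17, chromosome 13 from 110305812 to 110513209, plus strand) have RefSeq starts 127 bases apart. COL4A5 (ENSG00000188153.12, chromosome X from 108439844 to 108697545, plus strand) starts 380 bases from COL4A6 on the minus strand, and the 250 bases before the COL4A5 start are given. The gene positions are those of GENCODE 29, whose outermost starts differ from RefSeq's. There the COL4A2 model begins 1421 bases inside that of COL4A1, so the pair overlaps, and the COL4A5 and COL4A6 starts are 347 bases apart. Both stretches are from RefSeq on GRCh38.p14, plus strand, with a CCAAT box (CCAAT, or ATTGG on the other strand) and a GC box (GGGCGG, or CCGCCC on the other strand) in capitals.
COL4A1 and COL4A2, chr13:110307158-110307283: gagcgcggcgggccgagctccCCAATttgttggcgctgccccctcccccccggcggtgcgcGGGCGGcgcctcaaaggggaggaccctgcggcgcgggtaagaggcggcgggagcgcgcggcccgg
COL4A6 and COL4A5, chrX:108439588-108439837: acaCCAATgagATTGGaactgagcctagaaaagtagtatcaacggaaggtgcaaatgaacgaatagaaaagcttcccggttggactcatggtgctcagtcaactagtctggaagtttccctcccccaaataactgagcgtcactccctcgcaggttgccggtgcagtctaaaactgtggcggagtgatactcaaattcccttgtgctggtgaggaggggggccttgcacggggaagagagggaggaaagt

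The COL4A1 and COL4A2 stretch was 80.2% G and C and held 1 CCAAT box and 1 GC box, which do not overlap. Among the 126 bases before the start of 35116 RefSeq promoters, 21.1% held a CCAAT box and 34.6% a GC box on either strand. The COL4A6 and COL4A5 stretch was 51.2% G and C and held 2 CCAAT boxes, 1 on each strand, and no GC box, where 32.0% and 42.6% of promoters held them in 250 bases. No TATA box (TATAAA, or TTTATA on the other strand) was in either stretch, and 5.87% of promoters held one in 126 bases and 10.7% in 250 bases. A match of these letters is a description of the sequence only. Of the 10 genes, 8 have an entry in the RefSeq table of promoters, and COL6A1 and COL8A1 do not.

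At D10, edgeR with the experiment as a block called 3 of the 10 genes (adjusted p under 0.05), and edgeR without the block called 0. Of these, COL7A1 and COL4A5 were higher than at D0 and COL8A2 was lower. COL4A1 and COL4A2 were lowest at D4 in both experiments. From D4 to D10 the blocked log2 fold change was 0.98 for COL4A1 (adjusted p = 0.0519) and 0.96 for COL4A2 (adjusted p = 0.0327). COL4A5 and COL7A1 were also called as higher in that comparison. Per kilobase of exon, the type VI chains COL6A1 and COL6A2 had the highest levels, and at D10 they were higher than at D0 in experiment 1 and lower in experiment 2. The test without a block called 0 of the 10 in each of D4, D7, D10 and D10 against D4, with edgeR (quasi-likelihood) and a threshold of 0.05 on the adjusted p. At an unadjusted p under 0.05 there were 2, 1, 3 and 5 of them, against 2.96%, 4.34%, 7.94% and 5.7% of all genes. Over all 13798 genes tested this fit called 0% at D4, 0% at D7, 0.29% at D10 and 0.00725% between D10 and D4. With the experiment as a replicate block, edgeR called 0 at D4, 0 at D7, 3 at D10 and 3 between D10 and D4, against 0.275%, 1.25%, 4.99% and 2.55% of all genes. DESeq2 without a block called 0, 0, 2 and 1 of the 10, against 0.287%, 0.785%, 2.17% and 0.938% of the genes for which it gave an adjusted p. The comparisons of D4, D7 and D10 share the same D0 libraries. In bulk RNA, fewer cells that express a gene cannot be told apart from less RNA per cell.

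**Figure D1:**
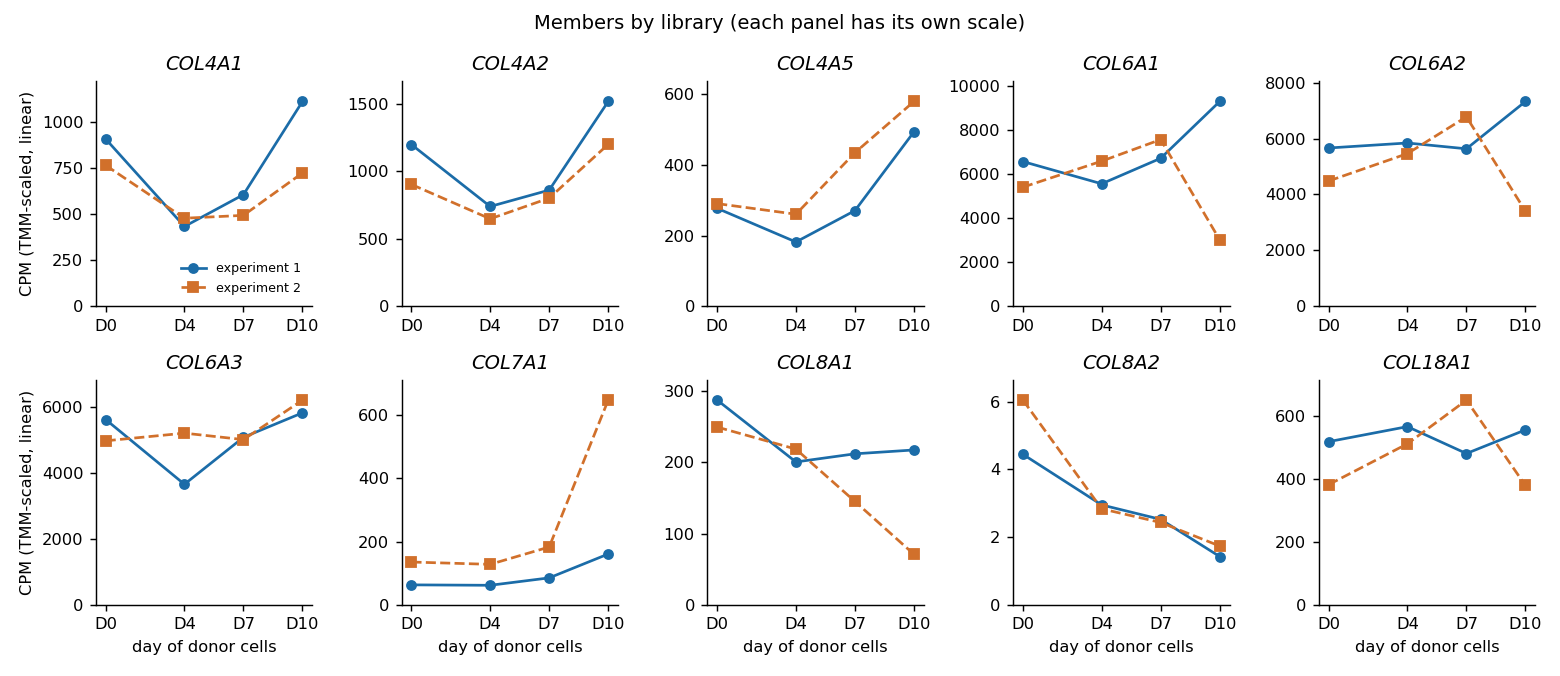
CPM of each of the 10 genes (y axis, linear, from 0, with its own scale in each panel) against the day of the donor cells (x axis), with circles for experiment 1 and squares for experiment 2. COL7A1 in experiment 2 stands above experiment 1 in every group and reaches 648 CPM at D10, and COL6A1 at D10 is split between 9284 and 3011 CPM.

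**Figure D2:**
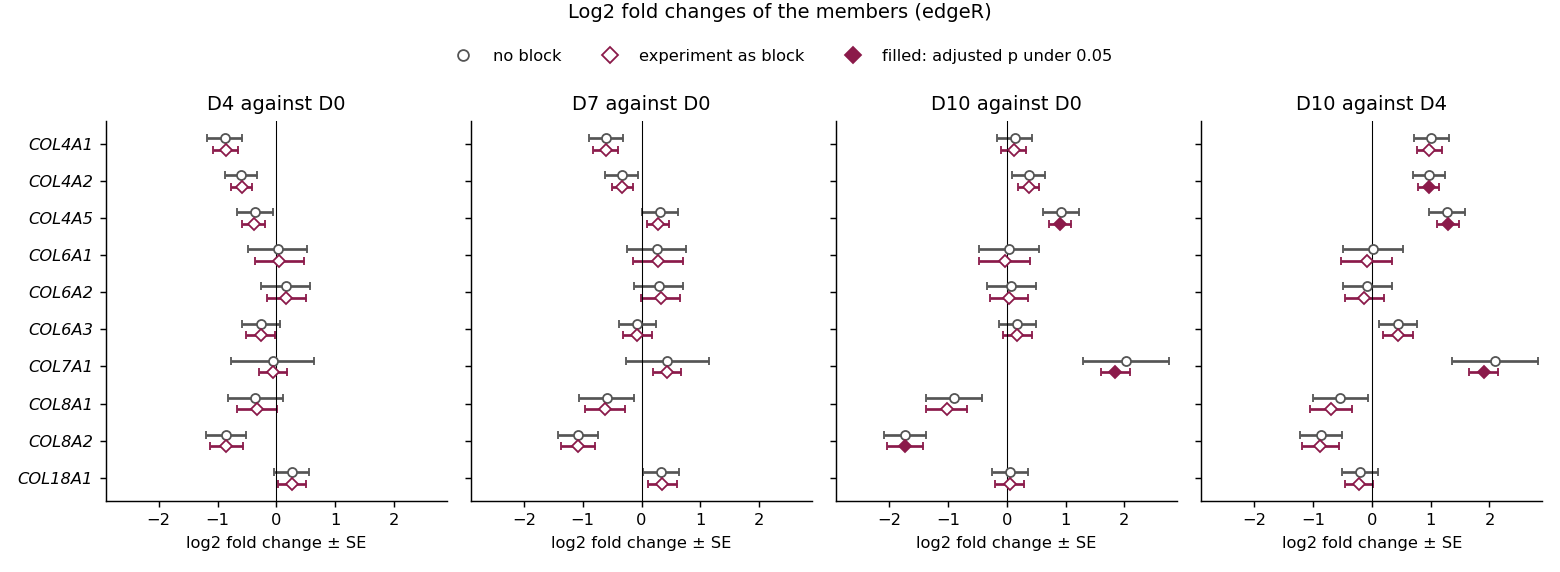
Log2 fold change with its standard error for each gene in 4 comparisons, from edgeR without a block (circles) and with the experiment as a block (diamonds), and filled symbols have an adjusted p under 0.05. The filled symbols are COL4A5, COL7A1 and COL8A2 at D10, and COL4A2, COL4A5 and COL7A1 between D10 and D4, all from the fit with the block.

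The median log2 fold change of the 10 genes without a block was -0.31 at D4, 0.09 at D7 and 0.11 at D10, beside medians over all genes of 0.01 or nearer to 0. At D4, 6 of the 10 genes were lower than D0 in both experiments and 2 were higher in both. At D10, 2 were lower in both and 4 were higher in both. The share of all genes that went the same way in both experiments was not computed, so these counts have no background. The groups did not overlap for 5 of the 10 genes for D4, 5 for D7, 6 for D10 and 6 for D10 against D4, where 22.3%, 28.9%, 31% and 25.6% of all genes tested did not overlap. The 10 genes together held 1.67% to 2.51% of all counts, with a median of 1.96%.

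COL7A1 (ENSG00000114270.17, chromosome 3 from 48564073 to 48595267), the chain of the anchoring fibril, had 63.1 and 135 CPM at D0 in experiments 1 and 2 and 61.8 and 128 CPM at D4. It had 85.2 and 183 CPM at D7 and 161 and 648 CPM at D10. Both D10 libraries lay above both D0 libraries, but the D10 value of experiment 1 was below the D7 value of experiment 2. Experiment 2 was higher than experiment 1 by a similar factor at D0, D4 and D7 (2.15, 2.07 and 2.15) and by 4.03 at D10. Within experiments the D10 level was 2.55-fold and 4.79-fold that of D0. Without a block the log2 fold change was 2.03 (standard error 0.73, adjusted p = 0.448 by edgeR). With the block it was 1.85 (standard error 0.24, adjusted p = 0.00442), and DESeq2 gave an adjusted p of 0.0478. Between D10 and D4 the block gave 1.90 (standard error 0.25, adjusted p = 0.00994), where edgeR without it gave 0.701. With no filter on low counts, edgeR without a block called COL7A1 both at D10 (adjusted p = 0.0187) and between D10 and D4 (adjusted p = 0.0276). The blocked D10 call was lost without D0 of experiment 2 (1.69, adjusted p = 0.0790) and kept when any other library was left out, and the call against D4 was lost without either D4 library (2.09 and 1.71, adjusted p = 0.0882 and 0.121). Without D10 of experiment 2, the fit without a block gave 0.70 and the blocked fit 1.34. The exons of COL7A1 contain the miRNA gene MIR711 on the same strand, over 0.325% of their bases.

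COL4A5, an X-linked chain that is the one mutated in most families with Alport syndrome, had 277 and 291 CPM at D0 in experiments 1 and 2. It stood at 182 and 261 CPM at D4, at 271 and 435 CPM at D7, and at 494 and 580 CPM at D10. The D10 libraries were above all other libraries, and the D4 libraries were below both D0 libraries. The D10 level was 1.78-fold and 2.0-fold that of D0 within experiments. At D10 the log2 fold change was 0.92 without a block (standard error 0.31, adjusted p = 0.385) and 0.91 with it (standard error 0.19, adjusted p = 0.0294). Between D10 and D4 it was 1.28 without a block (standard error 0.31, adjusted p = 0.344) and 1.30 with it (standard error 0.19, adjusted p = 0.0153), and DESeq2 without a block gave an adjusted p of 0.0168 for that difference. The blocked D10 call did not hold without D0 of experiment 1 (1.12, adjusted p = 0.0945), D0 of experiment 2 (0.71, adjusted p = 0.478) or D4 of experiment 2 (0.91, adjusted p = 0.0516). The call against D4 did not hold without either D4 library (1.22 and 1.39, adjusted p = 0.138 and 0.115).

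COL4A6, which is not among the 10 genes, is the head-to-head neighbour of COL4A5 and belongs to the list of other network collagens. It had 59.1 and 59.5 CPM with D0 medium, 47.7 and 74.6 CPM at D4, 72.4 and 140 CPM at D7, and 135 and 152 CPM at D10. Its D10 libraries were both above its D0 libraries, at 2.28-fold and 2.55-fold within experiments. The log2 fold change at D10 was 1.27 without a block (adjusted p = 0.227) and 1.26 with it (standard error 0.22, adjusted p = 0.0150), and between D10 and D4 it was 1.26 with the block (adjusted p = 0.0268). The D10 call was lost without D0 of experiment 2 (0.99, adjusted p = 0.225), and the call against D4 was lost without either D4 library (1.15 and 1.39, adjusted p = 0.187 and 0.142). The ratio of COL4A5 to COL4A6 counts lay between 3.10 and 4.89 in the 8 libraries and was lower at D10 than at D0 in both experiments, by 0.36 and 0.35 on the log2 scale. The exact permutation test of that ratio, D10 against D0 and two-sided, gave 0.333, the smallest p that 2 against 2 libraries allow. The other partners of COL4A5 were nearly absent, with at most 2 counts of COL4A3 and at most 1 count of COL4A4 in any library.

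COL4A1 had 907 and 764 CPM with D0 medium, 432 and 477 CPM at D4, 605 and 493 CPM at D7, and 1111 and 723 CPM at D10, in experiments 1 and 2. All D4 and D7 libraries lay below both D0 libraries, and the D10 libraries lay on either side of them. At D4 it stood at 0.477-fold and 0.625-fold of D0. At D4 the log2 fold change was -0.88 without a block (standard error 0.29, adjusted p = 1.00) and -0.86 with it (standard error 0.21, adjusted p = 0.180). Between D10 and D4 it was 1.01 without a block (adjusted p = 0.515) and 0.98 with it (standard error 0.21, adjusted p = 0.0519). With either D10 library left out, the blocked values were -0.86 and -0.87 at D4 and -0.60 and -0.61 at D7. The full blocked fit gave -0.61 at D7 (adjusted p = 0.306).

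COL4A2 followed the same order of groups in experiment 1. It had 1199 and 903 CPM with D0 medium, 740 and 648 CPM at D4, 861 and 802 CPM at D7, and 1519 and 1201 CPM at D10. All D4 and D7 libraries were below both D0 libraries. Both D10 libraries were above all others, but the lower one only barely, at 1201 CPM against 1199 CPM in D0 of experiment 1. The blocked D10 log2 fold change was 0.38 (standard error 0.18, adjusted p = 0.321). Its D4 log2 fold change was -0.60 without a block (standard error 0.28, adjusted p = 1.00) and -0.59 with it (standard error 0.18, adjusted p = 0.344). From D4 to D10 the blocked fit gave 0.96 (standard error 0.18, adjusted p = 0.0327), and the fit without a block gave 0.97 (standard error 0.28, adjusted p = 0.499). That call held without either D10 library and did not hold without D0, D4 or D7 of either experiment, with adjusted p of up to 0.200. Without D10 of experiment 1 or of experiment 2, the blocked D4 values of COL4A2 were -0.58 and -0.59. The endothelial marker TEK also had its lowest levels at D4, with 88.2 and 77.5 CPM at D0, 40.4 and 52.2 CPM at D4, 66.3 and 69.5 CPM at D7 and 121 and 75.0 CPM at D10. It made up most of the summed endothelial list, which was 91.3 and 79.3 CPM at D0, 43.2 and 54.3 CPM at D4, 71.0 and 72.0 CPM at D7 and 123 and 78.8 CPM at D10, while PECAM1 and CDH5 stayed under 1 CPM in every library. VWF had 1.71 and 0.746 CPM at D4 and 1.11 and 1.97 CPM at D10, and D4 was its lowest group in experiment 2 only. The part of TEK in the D4 levels of COL4A1 and COL4A2 was not tested. Antisense genes cover 0.492% of the COL4A2 exon bases, and whether the counting used strand is not given in the sources used here.

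**Figure D3:**
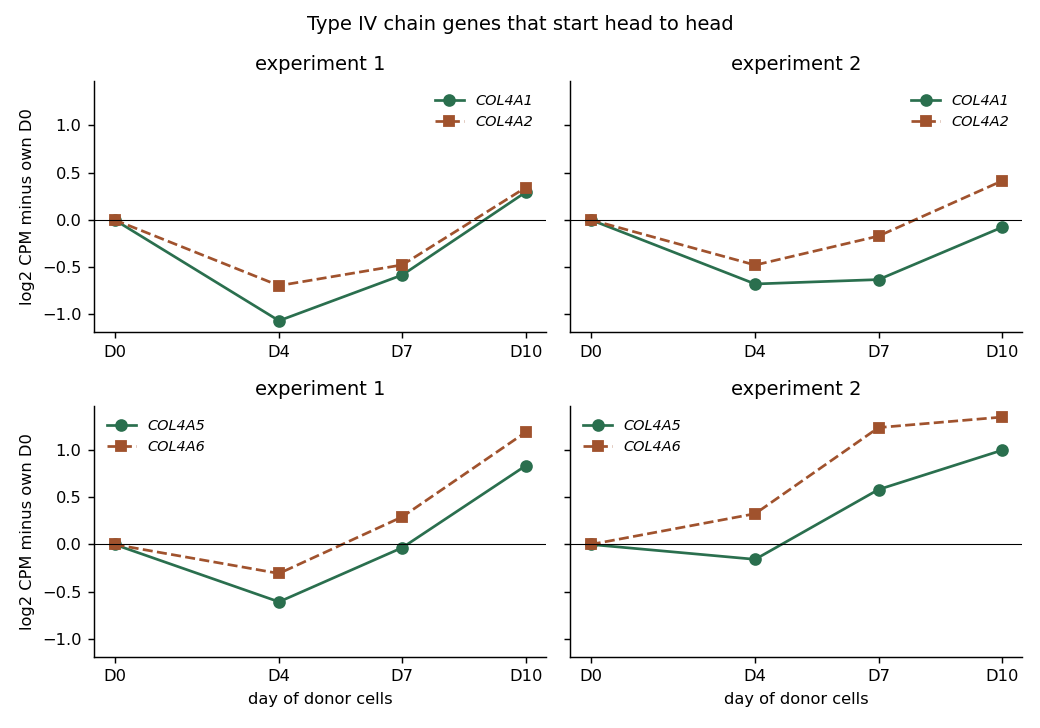
Log2 CPM of each gene minus its own D0 library (y axis, prior count of 2) against the day of the donor cells (x axis), for COL4A1 with COL4A2 (top) and COL4A5 with COL4A6 (bottom), in experiment 1 (left) and 2 (right). The upper pair dips at D4, to -1.07 and -0.70 in experiment 1, and the lower pair reaches 0.83 and 1.19 at D10 in experiment 1 and 1.00 and 1.35 in experiment 2.

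Ratios between the chains of type IV collagen were taken within each library. The ratio of COL4A5 to COL4A1 counts was 0.306 and 0.380 with D0 medium and 0.421 and 0.546 at D4, then 0.447 and 0.882 at D7 and 0.445 and 0.802 at D10. It was higher than D0 in all 6 later libraries. At D10 the log2 ratio was higher by 0.54 and 1.08 within experiments, and the exact two-sided permutation p was 0.333. The ratio of COL4A1 to COL4A2 counts stayed between 0.585 and 0.846, and was lower at D10 than at D0 by 0.05 and 0.49 on the log2 scale. Per kilobase of exon the same ratio was 0.990 and 1.11 at D0, and per kilobase of the principal transcript it was 0.743 and 0.831, so the level of one chain over the other depends on the length used.

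COL6A1 (ENSG00000142156.14, chromosome 21 from 45981737 to 46005050) had 6559 and 5399 CPM with D0 medium, 5551 and 6578 CPM at D4, 6708 and 7558 CPM at D7, and 9284 and 3011 CPM at D10. Its D10 libraries were the highest and the lowest of all 8. Within experiments the D10 level was 1.42-fold and 0.558-fold that of D0, and the log2 fold change was 0.04 without a block (standard error 0.51, adjusted p = 0.998) and -0.04 with it (standard error 0.43, adjusted p = 0.977). Without D10 of experiment 2 the blocked fit gave 0.66, and without D10 of experiment 1 it gave -0.99, each with 1 D10 library.

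COL6A2 (ENSG00000142173.14, chromosome 21 from 46098097 to 46132849) showed the same split, with 5665 and 4484 CPM with D0 medium, 5844 and 5464 CPM at D4, 5636 and 6781 CPM at D7, and 7330 and 3404 CPM at D10. Its D10 level was 1.29-fold and 0.759-fold that of D0, and the blocked log2 fold change was 0.04 (standard error 0.33, adjusted p = 0.967). Without D10 of experiment 2 this was 0.51, and without D10 of experiment 1 it was -0.52. COL6A3 (ENSG00000163359.15, chromosome 2 from 237324003 to 237414375), the long chain that carries most of the globular domains and the fragment endotrophin, did not share the split. It had 5605 and 4962 CPM with D0 medium, 3647 and 5194 CPM at D4, 5068 and 4999 CPM at D7, and 5809 and 6193 CPM at D10. Both D10 libraries lay above both D0 libraries, by 1.04-fold and 1.25-fold within experiments, and the log2 fold change was 0.18 (standard error 0.32, adjusted p = 0.998 without a block). In D10 of experiment 2, COL6A1, COL6A2, COL1A1, COL1A2 (2862 CPM) and COL3A1 (467 CPM) all had their lowest level of the 8 libraries, and their part in the type VI split was not tested.

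Per kilobase of exon, COL6A1 and COL6A2 had the highest levels at D0, with 1119 ± 154 and 942 ± 155 CPM per kb (SD, 2 libraries), and the ranges of these neighbours overlapped. COL6A3 followed with 269 ± 23.1, then COL4A1 with 56.7 ± 6.85, COL4A2 with 54.5 ± 10.8 and COL18A1 with 52.9 ± 11.3, which overlapped each other. COL8A1 had 28.5 ± 2.84, COL4A5 had 23.9 ± 0.802, COL7A1 had 8.96 ± 4.62 and COL8A2 had 1.12 ± 0.242, with no overlap between these neighbours. At D10 COL4A5, with 45.3 ± 5.13 CPM per kb, and COL7A1, with 36.5 ± 31.1, stood above COL8A1, with 15.3 ± 11.0, but the range of COL7A1 overlapped both of the others. These orders and overlaps hold for exon bases only. COL4A1 has 14738 exon bases but a principal transcript of 6616, and COL8A1 has 9408 and 5705. By principal transcript COL6A1 was below COL6A2 at D0, with ratios of 0.946 and 0.983, against 1.17 and 1.21 by exon bases. The other orders by that length were not computed. The ratio of COL6A3 to COL6A1 counts was between 0.626 and 0.919 in 7 libraries and 2.06 in D10 of experiment 2. The ratio of COL6A1 to COL6A2 counts lay between 0.885 and 1.27, and D10 of experiment 2 had the lowest value. The exact two-sided permutation p for D10 against D0 was 1.00 for both ratios, and 2 against 2 libraries cannot go below 0.333.

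**Figure D4:**
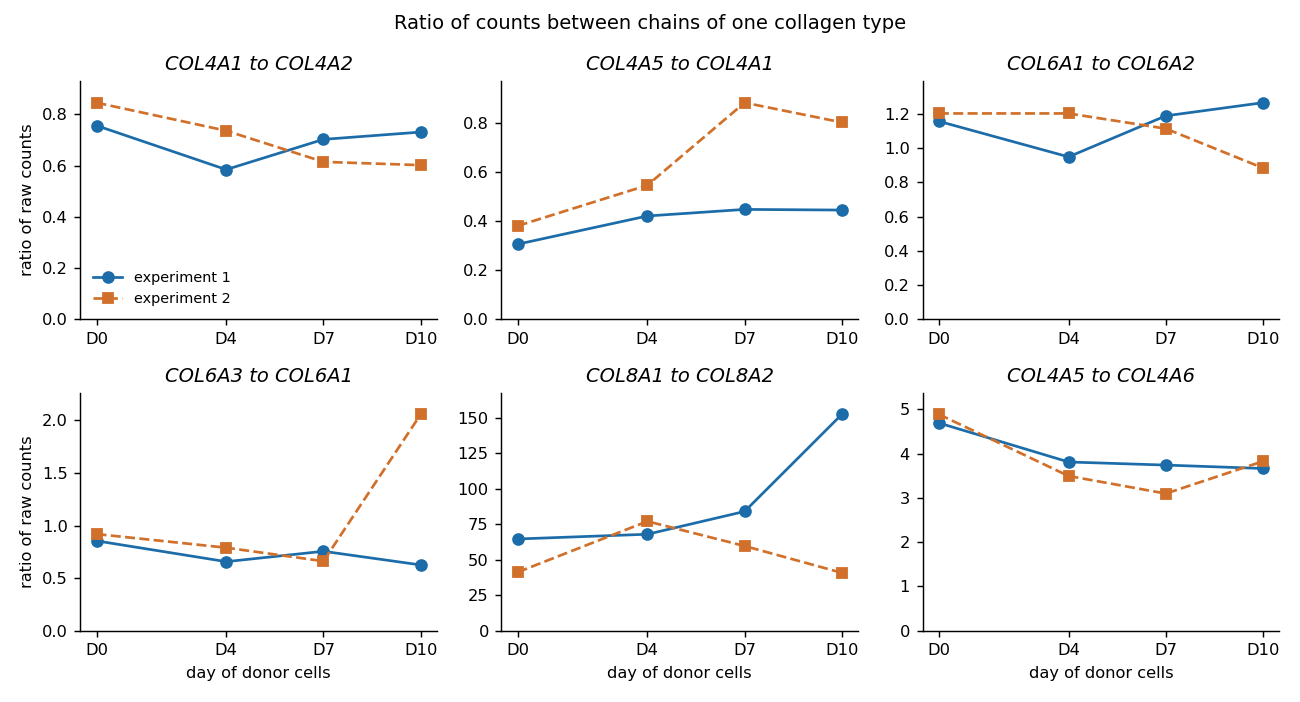
Ratio of raw counts between chains of one collagen type (y axis, from 0) against the day of the donor cells (x axis), with circles for experiment 1 and squares for experiment 2. COL6A3 to COL6A1 reaches 2.06 in D10 of experiment 2, and COL4A5 to COL4A1 is above its D0 values in all later libraries.

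COL8A2 (ENSG00000171812.12, chromosome 1 from 36095236 to 36125220), the scarcer type VIII chain and one tied to corneal endothelial dystrophy, had 4.44 and 6.04 CPM at D0 and 2.95 and 2.83 CPM at D4. It had 2.52 and 2.43 CPM at D7 and 1.43 and 1.74 CPM at D10. These levels rest on 53 and 83 counts at D0 and 18 and 22 counts at D10, and the groups did not overlap in any pair of days. At D10 it was at 0.321-fold and 0.287-fold of D0. Its D10 log2 fold change was -1.73 without a block (standard error 0.36, adjusted p = 0.102) and -1.72 with it (standard error 0.31, adjusted p = 0.0151), and without a block DESeq2 gave an adjusted p of 0.0313 and edgeR with no filter 0.0472. At D4 and D7 the blocked values were -0.85 (adjusted p = 0.416) and -1.07 (adjusted p = 0.168). The blocked D10 call was lost without D0 of experiment 1 (-1.91, adjusted p = 0.0616) or D0 of experiment 2 (-1.51, adjusted p = 0.261).

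COL8A1 (ENSG00000144810.15, chromosome 3 from 99638475 to 99799226), its partner chain, had 287 and 249 CPM with D0 medium, 200 and 218 CPM at D4, 212 and 145 CPM at D7, and 217 and 70.8 CPM at D10. All 6 later libraries lay below both D0 libraries. The log2 fold change at D10 was -0.90 without a block (standard error 0.47, adjusted p = 0.797) and -1.02 with it (standard error 0.35, adjusted p = 0.160). The size rested on D10 of experiment 2, since the blocked value without that library was -0.40 and without D10 of experiment 1 it was -1.79. Each of these fits has 1 D10 library. At D7 the blocked value without either D10 library was -0.60, where the full blocked fit gave -0.62 (adjusted p = 0.622). The ratio of COL8A1 to COL8A2 counts was between 40.8 and 152, and both ends of that range were D10 libraries.

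COL18A1 (ENSG00000182871.14, chromosome 21 from 45405137 to 45513720), the source of endostatin, had 519 and 383 CPM with D0 medium, 567 and 512 CPM at D4, 482 and 651 CPM at D7, and 557 and 380 CPM at D10. The D10 libraries spanned those of D0. The log2 fold change was 0.26 at D4, 0.33 at D7 and 0.05 at D10 without a block, with standard errors of 0.30 at each day and adjusted p of 1.00, 1.00 and 0.998. SLC19A1 on the opposite strand covers 16.4% of the COL18A1 exon bases, so counts of the pair could be shared if strand was not used.

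Of 7 other network collagens, 6 had a row and 3 were tested, COL4A6, COL10A1 and COL15A1. COL10A1, a network chain of growth plate cartilage, had the largest log2 fold change among them and rested on 6 and 12 counts with D0 medium, 23 and 51 counts at D4, 42 and 51 counts at D7, and 48 and 18 counts at D10. It was higher than D0 in all later libraries, with a log2 fold change at D10 of 1.90 (standard error 0.64, adjusted p = 0.398 without and 0.150 with the block). The block called 1 of the 3 at D10 and between D10 and D4, COL4A6 in both, against 4.99% and 2.55% of all genes. The edgeR test without it called 0 in each comparison, with 3 at an unadjusted p under 0.05 at D10, and DESeq2 called 1 at D10.

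Among the partners of type IV collagen in the basement membrane, which are laminins, nidogens, perlecan, agrin and related genes, 17 of 21 were tested. The test without a block called 0 of them in each comparison, with 2 at an unadjusted p under 0.05 at D10. The block called 1 at D10, which was higher, against 4.99% of all genes, and 0 elsewhere. DESeq2 called 1 at D10. Their median log2 fold change at D10 with the block was -0.35, beside 0.01 for all genes. LAMB3, a chain of the epithelial laminin that binds the anchoring fibrils of type VII collagen, had 1.26 and 1.46 CPM with D0 medium, 2.33 and 2.09 CPM at D4, 2.75 and 1.52 CPM at D7, and 4.20 and 6.71 CPM at D10. Its D10 libraries were above all others, with a log2 fold change of 1.99 with the block (standard error 0.41, adjusted p = 0.0271) and 2.0 without it (adjusted p = 0.129). That call held when 3 of the 8 libraries were left out in turn (D7 of either experiment and D10 of experiment 1) and did not hold for the other 5, with adjusted p of up to 0.229. At D10 these levels rest on 53 and 85 counts.

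Of the genes that fold, crosslink and process collagen, 20 of 21 were tested. P4HA3, a catalytic subunit of collagen prolyl 4-hydroxylase, had 3.60 and 4.15 CPM with D0 medium, 7.30 and 5.89 CPM at D4, 6.72 and 10.5 CPM at D7, and 19.1 and 21.9 CPM at D10. It was 5.30-fold and 5.29-fold higher than D0 within experiments, and was called at D10 without a block (log2 fold change 2.40, standard error 0.32, adjusted p = 0.0399) and with it (adjusted p = 0.00188). The blocked call held in all 8 fits that left out a library. SERPINH1, the collagen chaperone HSP47, had 1035 and 621 CPM with D0 medium, 718 and 453 CPM at D4, 559 and 399 CPM at D7, and 617 and 358 CPM at D10, and it was lower than D0 within both experiments on each day. It fell at D10 with the block (-0.77, standard error 0.17, adjusted p = 0.0358, against 0.807 without it), and the call was lost in 6 of the 8 fits that left out a library, with adjusted p of up to 0.355. No other gene of this list was called on any day with or without the block. Over all genes, 4.99% were called at D10 with the block and 0.29% without it. The list's median at D10 with the block was 0.12.

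All 10 genes listed as receptors of these collagens were tested. Those called with the block were all higher. The block called 2 at D7, 1 at D10 and 2 between D10 and D4, against 1.25%, 4.99% and 2.55% of all genes. The edgeR test without it called 0 in each comparison, with 2 at an unadjusted p under 0.05 at D4, D7 and D10, and DESeq2 called 1 at D4, 2 at D7 and 2 at D10. ITGA2, which pairs with ITGB1 in a collagen-binding integrin, had 189 and 199 CPM with D0 medium, 265 and 509 CPM at D4, 577 and 704 CPM at D7, and 850 and 676 CPM at D10. It rose with the block at D7 (1.72, adjusted p = 0.0298) and D10 (1.99, standard error 0.28, adjusted p = 0.00573), and the D10 call was lost without D0 of experiment 2 (adjusted p = 0.0858) and the D7 call without any 1 of the D0 and D7 libraries (adjusted p of up to 0.375). ITGA10 rose at D7 with the block (3.36, standard error 0.53, adjusted p = 0.0276), from 4.44 and 3.20 CPM to 24.8 and 57.3 CPM, and stood at 20.5 and 11.4 CPM at D10. That call was lost without either D7 library or D0 of experiment 2, with adjusted p of up to 0.356. ITGA1, the chain of an integrin known for binding type IV collagen, had 197 and 334 CPM with D0 medium, 97.2 and 171 CPM at D4, 125 and 177 CPM at D7, and 186 and 364 CPM at D10. From D4 to D10 it rose with the block by 1.02 on the log2 scale (standard error 0.16, adjusted p = 0.0193). ANTXR1, a receptor that binds type VI collagen, had 386 and 471 CPM with D0 medium, 248 and 371 CPM at D4, 340 and 531 CPM at D7, and 601 and 707 CPM at D10, and it rose from D4 to D10 with the block by 1.11 (standard error 0.18, adjusted p = 0.0200). The calls of ITGA1 and ANTXR1 were lost without either D4 library, with adjusted p of up to 0.147 and 0.155, and that of ANTXR1 also without D7 of experiment 2.

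Of 8 proteases that cut type IV or type XVIII collagen, 7 were tested. The block called 1 at D10 and 1 between D10 and D4, both MMP3, against 4.99% and 2.55% of all genes. The edgeR test without a block called 0, with 2 at an unadjusted p under 0.05 at D10, and DESeq2 called 2 at D10 and 1 between D10 and D4. MMP3, or stromelysin 1, had 19.5 and 4.30 CPM with D0 medium, 26.9 and 9.10 CPM at D4, 42.2 and 23.8 CPM at D7, and 254 and 3327 CPM at D10. The log2 fold change at D10 was 7.24 without a block (standard error 1.43, adjusted p = 0.0934) and 7.51 with it (adjusted p = 0.0201), and the D10 level of experiment 2 was 13.1-fold that of experiment 1. Without D10 of experiment 2 the blocked value was 3.96, and the D10 call was lost without D0 of experiment 2 or either D7 library, with adjusted p of up to 0.160. The call against D4 was lost without any 1 of the D4 and D7 libraries, with adjusted p of up to 0.225.

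**Figure D5:**
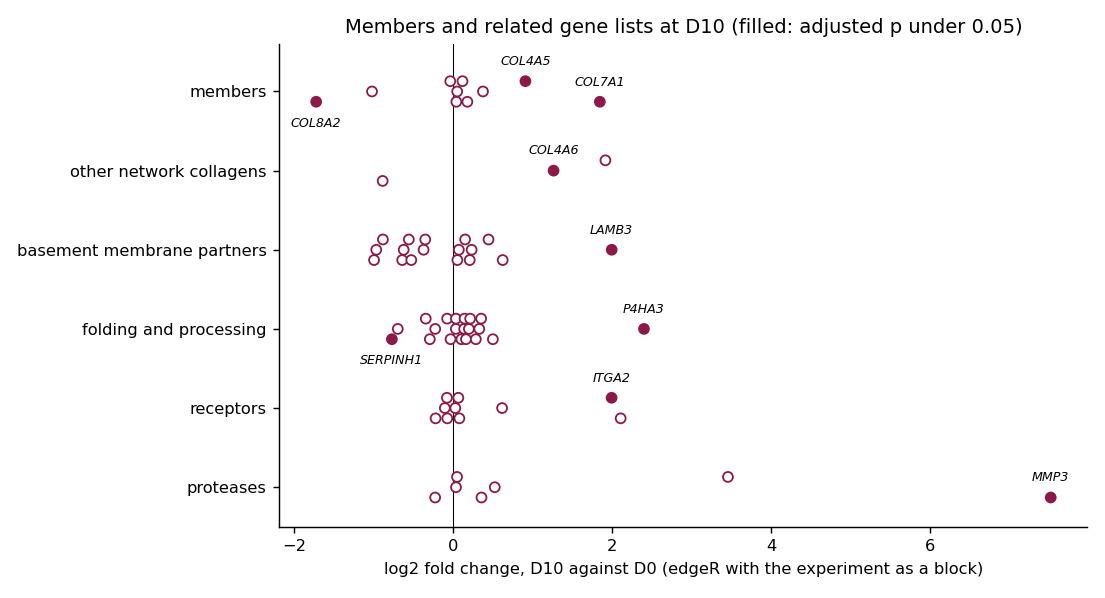
Log2 fold change at D10 against D0 from edgeR with the experiment as a block (x axis) for each tested gene of the 10 members and of the 5 related lists (rows; points are spread vertically for legibility only). Filled and named points have an adjusted p under 0.05: COL8A2 and SERPINH1 lie to the left of 0 and the others to the right.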

How the data were processed

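RNA of 8 libraries was measured as raw counts of reads per gene, which the authors deposited as whole numbers without normalization, in a table of 27696 genes. Total counts ranged from 11708193 to 13395912 per library. The submitters' processing notes name STAR 2.5, DESeq2 and GRCh38, and the counter, annotation release and strand setting are not given in the sources used here. Normalized values in the same table were left aside. In the header, D0 replicate 1 is spelled DO. The labels give 3 days of incubation for these samples, and the study's general protocol a longer one.

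Counts were filtered with filterByExpr, which left 13798 genes, scaled with TMM and tested with edgeR 4.0.16 (quasi-likelihood, R 4.3.3) in 1 fit of all 8 libraries by group, with Benjamini-Hochberg adjustment and a threshold of 0.05. Levels are CPM of TMM-scaled libraries, and log2 CPM used a prior count of 2. The replicate numbers pair the libraries, since they come from 2 independent experiments and libraries with the same number departed from their group means together, with r across genes of 0.418 to 0.722 in all 6 pairs of groups. The fit with the experiment as a replicate block is therefore given where it changes a call. Alternatives were DESeq2 1.42.0, its size factors, fitting the compared groups only, a minimum of 10 counts in every library, no filter, an adjusted p under 0.01, leaving out each library, and, chosen after seeing the data, the block with each library left out, the block with DESeq2's size factors and another transcript length.

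Positions and exon lengths are from GENCODE 29 on GRCh38, which holds 99.6% of the identifiers. Of 2 rows for RGS5, the one with more counts was used. Named genes are the 10 members and, from each related list, genes called with or without the block (at most 6) and the gene with the largest D10 change. The members and lists were chosen with earlier results of these data known. P-values measure the spread between libraries of 2 experiments. The scripts were tested on counts simulated with the spread of the blocked fit. A minimum recovery of changed genes was required of the blocked fit and DESeq2, not of edgeR without a block. Exact permutation tests used SciPy 1.17.1, and figures Matplotlib 3.10.9.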

Additional observations from a re-analysis of the deposited data

Results flagged for a closer look

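The D4 and D10 changes of 3 genes differed by the direct test of D10 against D4 with the experiment as a block (edgeR, adjusted p of 0.0327, 0.0153 and 0.00994). The log2 differences were 0.96 for COL4A2, 1.30 for COL4A5 and 1.90 for COL7A1, each higher at D10 in both experiments. The same edgeR fit without the block gave adjusted p of 0.499, 0.344 and 0.701. Of other fits without the block, DESeq2 called COL4A5 (adjusted p = 0.0168) and edgeR with no filter called COL7A1 (adjusted p = 0.0276).

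The D10 change from D0 went opposite ways in the 2 experiments for 4 genes. Experiment 2 minus experiment 1, this difference was -0.37 on the log2 scale for COL4A1, -1.34 for COL6A1, -0.77 for COL6A2 and -0.11 for COL18A1. These differences between experiments rest on 1 library per group each and were not tested. For COL18A1 the 2 changes were 0.10 and -0.01, so the second was near 0. The SD over all genes of the D10 change within an experiment was 0.588 in experiment 1 and 0.769 in experiment 2. Neither the SD of the difference between experiments nor the share of all genes that went opposite ways was computed.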

How the results depend on the processing

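Without a block, 0 of the 10 genes were called in each comparison when any library was left out, with DESeq2's size factors, with a minimum of 10 counts, with the compared groups alone or at an adjusted p under 0.01. DESeq2 and the fit with no filter each called 2 at D10, COL7A1 and COL8A2, and 1 between D10 and D4, which was COL4A5 by DESeq2 and COL7A1 with no filter. The replicate block called 3 and 3, with DESeq2's size factors also 3 and 3, and it changed no other call of the 10 genes. With the block and 1 library left out, the calls ranged from 0 to 2 at D4, 0 to 3 at D7, 0 to 5 at D10 and 0 to 6 between D10 and D4, and without D10 of experiment 2, the library that stood apart, they were 2, 3, 3 and 4. The highest of these counts came from blocked fits without a D10 library, which leave 1 library at D10. In each comparison those fits also called more genes over the whole table than the full blocked fit. The higher counts were therefore not limited to the 10 genes. With all 8 libraries, the number of genes called over the whole table at D10 was 40 without and 688 with the block, 379 by DESeq2, 371 without a filter and 20 with a minimum of 10 counts. Between D10 and D4 it was 1, 352, 149, 147 and 1. The causes were not tested.

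Of the 40 fold changes of the 10 genes, 19 changed sign in at least 1 alternative. COL6A1 turned with the block, to -0.04 at D10 and -0.09 against D4, and with DESeq2's size factors in that fit to -0.03 and -0.10. The others turned when a library was left out, and their ranges follow without and then with the block. COL4A1 ranged from -0.19 to 0.41 and -0.12 to 0.35 at D10, and COL4A5 from -0.07 to 0.62 and 0.07 to 0.48 at D7. COL6A1 ranged from -0.11 to 0.17 and -0.39 to 0.41 at D4, 0.12 to 0.40 and -0.11 to 0.61 at D7, -0.97 to 0.64 and -0.99 to 0.66 at D10, and -1.0 to 0.61 and -1.02 to 0.64 against D4, where the block gave -0.49 without D4 of experiment 1 and -0.15 without either D7 library. COL6A2 ranged from 0.00 to 0.34 and 0.02 to 0.30 at D4, 0.13 to 0.47 and -0.10 to 0.68 at D7, -0.56 to 0.53 and -0.52 to 0.51 at D10, and -0.73 to 0.37 and -0.69 to 0.35 against D4. COL6A3 ranged from -0.16 to 0.02 and -0.25 to 0.12 at D7, and 0.09 to 0.27 and 0.00 to 0.37 at D10. COL7A1 ranged from -0.68 to 0.59 and -0.25 to 0.12 at D4, with 0.10 for the block without D0 of experiment 1, and from -0.22 to 1.09 and 0.29 to 0.58 at D7. COL8A1 ranged from -0.46 to -0.25 and -0.83 to 0.06 at D4, and -1.56 to 0.05 and -1.46 to -0.06 against D4. COL18A1 ranged from 0.10 to 0.56 and -0.08 to 0.74 at D7, -0.23 to 0.30 and -0.20 to 0.28 at D10, with -0.12 for the block without D0 of experiment 2, and -0.50 to 0.04 and -0.47 to 0.02 against D4. With 2 libraries per group the spread rests on all groups, and a lone library is assumed to vary like the others.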
